A study of Mus musculus with 12 samples.

Results

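The yolk sac with ectopic Norrin was compared between 2 stages, embryonic day 10.5 (E10.5) and E8.5, across every named gene of the array. The comparison rests on 6 of the 12 arrays of the series: 3 pools titled Z/Norrin at E10.5 and 3 at E8.5, chosen by their titles and by no measured value. The Norrin E10.5 and Norrin E8.5 pools came from Z/Norrin mouse embryos, which express Norrin ectopically from a conditional over-expression allele. Which Cre driver activates it, where and when, is not stated in the labels. Wild type E10.5 and wild type E8.5 pools, 3 arrays each, are used only to show where the stage change of Norrin yolk sacs differs. All 4 groups share a mixed C57Bl6/129 background. Whole yolk sacs were pooled from 3 to 5 embryos, both sexes together, for each sample, so the replicates of a group are separate pools. The levels are those of all its tissues together. In such bulk RNA, fewer cells of a type and less RNA per cell cannot be told apart.

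The yolk sac is a membrane around the embryo with an absorptive, liver-like outer layer (the visceral endoderm) and an inner mesodermal layer that makes mesenchyme, vessels, a mesothelial lining and the first blood. In the first wave of blood formation, primitive red cells and the first macrophages arise in blood islands. The endoderm takes up maternal nutrients, secretes plasma proteins before the liver does, and packs lipids into lipoproteins. Norrin is a secreted ligand that binds the receptor Frizzled4 with the coreceptors Lrp5 or Lrp6 and Tspan12 and signals through beta-catenin, best known from the growth of retinal vessels.

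The labelled tissue was checked by its defining markers on the 6 Norrin arrays. The 7 measured visceral endoderm markers, among them Afp and Ttr, had log2 levels of at least 11.2 on every array. Of 6 primitive erythroid markers, 4 reached the median level of all genes over the 12 arrays (7.685) on each Norrin array, and Gata1 and Klf1 did not on every E10.5 array. Of 4 endothelial markers, 3 did, with Pecam1 as low as 7.65 on 1 array. Ndp, the Norrin gene, had log2 levels of 4.47, 4.55 and 4.45 in Norrin E10.5 and 4.45, 4.64 and 4.54 in Norrin E8.5, near the floor of the array. The labels do not say if the transgene carries this probe set's sequence, and the levels therefore check nothing about the labels.

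The median deposited log2 value was 6.99 to 7.01 per array in Norrin E10.5 and 6.59 to 6.67 in Norrin E8.5. Between 26 and 93 values were identical in any 2 arrays of 1 stage, against 0 in each of the 36 pairings across stages, as separate normalization of each stage gives. Stage and normalization run can therefore not be told apart for a shift shared by all genes. A gene is said here to have risen or fallen only if its adjusted p (limma, Benjamini-Hochberg over 18193 genes) was under 0.05, with the same sign, both on the deposited values and after joint quantile normalization of the 12 arrays. Unless said otherwise, levels, differences (E10.5 minus E8.5, log2) and p-values are those of the deposited values.

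Under this rule 2971 of 18193 genes (16.3%) rose between E8.5 and E10.5 in Norrin yolk sac and 1713 (9.42%) fell. At an unadjusted p under 0.05 there were 8637 genes (47.5%), and the levels of the 2 stages did not overlap for 9407 (51.7%). Over 34945 named probe sets, 15.7% rose and 8.42% fell. At least 2-fold changes were found in 813 rising genes (4.47%) and 220 falling genes (1.21%), and at least 4-fold changes in 124 (0.682%) and 7 (0.0385%). By the deposited values alone 6895 genes (37.9%) were called: 5133 genes were higher at E10.5 (28.2%) and 1762 lower (9.69%), so 74.4% of the called genes were higher. That share depended on the scaling: it was 46.0% after joint quantile normalization (3060 higher, 16.8%, and 3587 lower, 19.7%), 28.3% with arrays centred on their median and 52.2% after cyclic loess. The median difference of all genes was 0.15 on the deposited values, -0.05 after joint quantile normalization, -0.21 after median centring and -0.00 after cyclic loess. With genes ranked by mean level into 4 bins of equal size, the median deposited difference was 0.24 in the lowest bin, 0.29 and 0.10 in the next ones and -0.05 in the highest. The number of genes that rose was 2259 to 2784 with 1 Norrin array left out. The number that fell was 1035 without Norrin E10.5 replicate 2, 1026 without Norrin E10.5 replicate 3, 1050 without Norrin E8.5 replicate 2, and 1351 to 1605 without each of the other 3.

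Arrays within a group were not equally alike. Among the 2971 genes that rose, the E8.5 array nearest to the E10.5 levels was replicate 3 for 1511 genes (50.9%), replicate 1 for 809 and replicate 2 for 651. Among the 1713 that fell, it was replicate 3 for 860 (50.2%). The hybridisation spike-ins are bacterial transcripts added before the array step. Their mean log2 levels were 10.43 to 11.47 in Norrin E10.5 and 10.60 to 11.82 in Norrin E8.5, with the highest of these in E8.5 replicate 3. This high level was not particular to Norrin: wild type E8.5 replicate 3 had 11.85, against 10.29 and 10.69 in wild type replicates 1 and 2. Across genes, the E8.5 replicate 3 arrays of both genotypes correlated at r = 0.987. This value was not particular to them. Norrin E8.5 replicates 2 and 3 also had 0.987, and the E8.5 replicate 1 and replicate 2 arrays of both genotypes had 0.994 and 0.990. At E10.5, replicate 2 carried a trophoblast signal that is described with the other tissues. Whether either feature played a part in the changes was not tested.

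Vldlr, a receptor that takes up triglyceride-rich lipoproteins, showed the largest rise among the genes named by rule. Its log2 level was 9.10, 9.88 and 9.71 in Norrin E10.5, against 4.15, 4.47 and 4.64 in Norrin E8.5. All 3 E10.5 pools lay far above the E8.5 pools, which were near the floor (difference 5.14, SE 0.23, adjusted p = 2.82e-07, or 35.4-fold in array values). Pga5, a pepsinogen (the precursor of an acid protease of the stomach), had 12.20, 11.65 and 11.24 in Norrin E10.5, against 6.36, 7.02 and 7.82 in Norrin E8.5. The groups did not overlap, and the rise was 24.8-fold (4.63, SE 0.41, adjusted p = 1.06e-05). Igfbp1, an insulin-like growth factor binding protein, had 13.37, 13.85 and 13.57 in Norrin E10.5, against 8.39, 8.97 and 11.01 in Norrin E8.5. It rose 17.6-fold (4.14, SE 0.62, adjusted p = 0.000318), and E8.5 replicate 3 stood between the other E8.5 pools and the E10.5 pools. Lox, which cross-links collagen and elastin, rose 13.1-fold. The endothelial proteoglycan gene Esm1 rose by 3.46 on the log2 scale, with E10.5 levels of 6.55, 8.86 and 8.25 that spread over more than the E8.5 levels of 4.75, 4.07 and 4.46. Cldn1, a tight junction protein, rose 10.8-fold and Ppp1r3c, a scaffold that promotes glycogen storage, 8.75-fold. Other Cldn1 probe sets gave smaller log2 differences of 0.07, 1.05 and 2.00. For Vldlr, C1qb, Ppbp, Esm1, Ifit1, Oasl2, Cxcl10, Cxcr4, Slc16a7 and Hoxa10 the mean Norrin E8.5 level was under 4.95, the 10th percentile of all gene values. Signal over background was not measured there, so folds of these genes describe array values and not ratios of RNA.

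Nefm, the medium neurofilament chain, fell most. Its log2 level was 4.95, 5.54 and 5.02 in Norrin E10.5, against 8.97, 8.94 and 7.99 in Norrin E8.5. The E8.5 pools all lay above the E10.5 pools (log2 -3.46, SE 0.27, adjusted p = 5.41e-06, 11-fold lower at E10.5). Prkar2b, a regulatory subunit of protein kinase A, had 7.16, 7.11 and 8.14 in Norrin E10.5, against 10.99, 10.43 and 8.89 in Norrin E8.5. Its fall of 2.63 on the log2 scale (SE 0.66, adjusted p = 0.00813) had its closest pools in replicate 3 of each stage. Slc38a5, a glutamine carrier also found on red cell precursors, had 6.5, 6.45 and 6.41 in Norrin E10.5, against 9.03, 9.15 and 8.28 in Norrin E8.5. The E10.5 pools were nearly equal and all lower (-2.37, SE 0.37, adjusted p = 0.000479). The sulphate carrier Slc13a4 fell 4.19-fold, the homeobox gene Hoxb6 4.0-fold and the retinoic acid binding protein Crabp2 3.45-fold. Bhmt2, which makes methionine from S-methylmethionine, fell 3.36-fold. Larp1b was lower by its brightest probe set (-1.76), while a second probe set of the gene was higher (1.43).

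Transcription factors of red cell precursors fell. Klf1, which switches on most genes of the terminal red cell programme, had log2 levels of 8.26, 7.82 and 7.63 in Norrin E10.5, against 9.87, 10.48 and 9.42 in Norrin E8.5. All E10.5 pools were lower (-2.02, SE 0.32, adjusted p = 0.000513). Tal1, needed to form blood at all, had 7.67, 7.57 and 7.94 in Norrin E10.5, against 9.85, 9.71 and 9.0 in Norrin E8.5. Again no pools overlapped (-1.79, SE 0.36, adjusted p = 0.0022). Nfe2, an activator of globin genes, fell by 1.68 and Zfpm1, the partner of Gata1, by 1.62. Of 14 factors on the list, 7 fell and 1 (Sox6, a repressor of embryonic globin) rose, beside 9.42% of all genes falling and 16.3% rising. The median difference of the list was -1.02 (-1.11 after joint quantile normalization), against 0.15 (-0.05) over all genes. The 7 falls were 7 or 8 with any Norrin array left out.

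Haem and iron genes moved in the same direction. Of 20 measured, 12 fell and 3 rose, with a median difference of -0.51. Slc25a37, the mitochondrial iron importer of red cells, had 9.20, 9.13 and 9.32 in Norrin E10.5, against 11.35, 11.12 and 10.48 in Norrin E8.5. The 3 E10.5 pools were nearly equal and all lower (-1.77, SE 0.37, adjusted p = 0.00281). The haem synthesis enzyme Cpox fell by 1.75 and the transferrin receptor Tfrc by 1.18. Other probe sets of these genes were lower by less: -0.35 and -0.69 for Cpox, and -0.56 and -0.30 for Tfrc. Their adjusted p over all probe sets was 0.542 and 0.0254 for Cpox, and 0.334 and 0.712 for Tfrc. Alas2, the first enzyme of haem synthesis in red cells, had 9.76, 9.54 and 9.31 in Norrin E10.5, against 10.42, 10.46 and 10.76 in Norrin E8.5. The groups did not overlap (-1.01, adjusted p = 0.0248), but the adjusted p was 0.0344 to 0.0838 with 1 Norrin array left out, past the threshold in 2 of the 6 fits. The 3 that rose, a share near that of all genes, were Hmox1, Slc40a1 and Ireb2. Hmox1 breaks haem down (2.34, E10.5 levels of 11.17, 12.98 and 11.62), Slc40a1 exports iron (0.89) and Ireb2 senses it (0.39). Ireb2 was past the threshold in 2 of the 6 fits with 1 Norrin array left out. The count that fell was 7 to 9 with 1 Norrin array left out, lowest without Norrin E10.5 replicate 3.

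Of 6 measured globins 3 fell and 0 rose. Hbb-bh1, an embryonic beta-like globin, had log2 levels of 13.98, 13.85 and 13.98 in Norrin E10.5, against 14.61, 14.57 and 14.52 in Norrin E8.5. Hba-x, the embryonic alpha-like globin, had 14.04, 14.12 and 13.96 in Norrin E10.5, against 14.58, 14.53 and 14.54 in Norrin E8.5. Both fell with no overlap (-0.63, adjusted p = 0.000855, and -0.51, adjusted p = 0.00559), at levels near the top of the array's scale. Hbb-y, the other early beta-like globin, differed by 0.00 (SE 0.20, adjusted p = 0.988). Hba-a1, an adult alpha globin with a near-identical copy, had 5.50 to 5.58 in Norrin E10.5 and 5.85 to 5.98 in Norrin E8.5, and fell too (-0.40). The adult globins Hba-a2 and Hbb-b2 were higher on the deposited values (0.54, adjusted p = 0.0131, and 0.62, adjusted p = 0.0469) but not called on both scalings, and a second Hbb-b2 probe set was at 1.40. Of 13 red cell membrane genes, 4 fell and 0 rose, with a median of -0.48. Ermap, a red cell adhesion protein, fell by 1.39 and spectrin beta (Sptb) by 1.08. A second Sptb probe set was higher (0.70), and for the ankyrin Ank1 (-1.03) 1 of 3 other probe sets was higher (0.31). Of 10 late erythroid genes 4 fell, led by Trim10 (-1.75) and Bpgm, which makes the oxygen-affinity regulator of red cells (-1.15).

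Over the 5 erythroid lists together, 30 of 63 measured genes fell (47.6%, beside 9.42% of all genes) and 4 rose. With 1 Norrin array left out, 22 to 27 fell. In wild type yolk sac 3 of the same 63 genes fell between the stages and 6 rose, and the median difference was -0.003, against -0.51 in Norrin. The Norrin stage change was below the wild type stage change in 53 of the 63. None of the 63 passed the test of that difference (lowest adjusted p = 0.0833), and 31 had an unadjusted p under 0.05, beside 7.01% of all genes. The plot of red cell genes by array shows the 3 Norrin E10.5 pools below the other 9 arrays for Klf1, Tal1, Slc25a37, Alas2, Hba-x and Hbb-bh1.

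**Figure D1:**
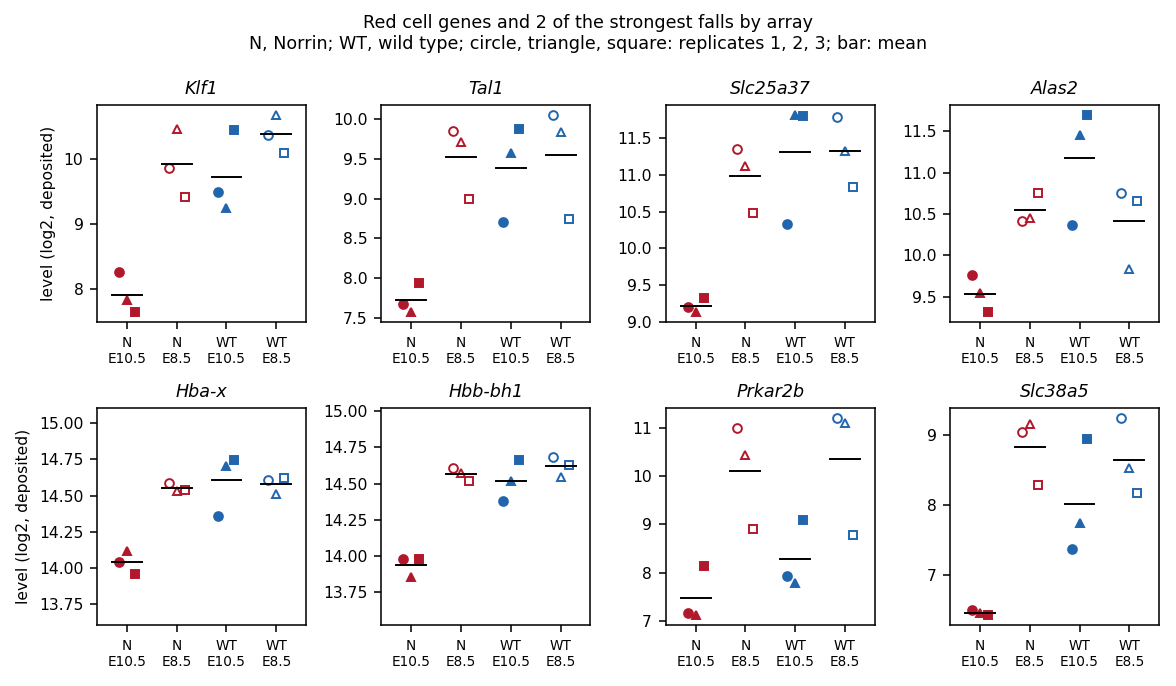
Log2 levels (y axis, deposited values) of 6 red cell genes and of Prkar2b and Slc38a5 on each array, by group from Norrin E10.5 to wild type E8.5. Circles, triangles and squares are replicates 1, 2 and 3 and bars are group means; the Norrin E10.5 pools lie lowest for Klf1, Tal1, Slc25a37, Alas2, Hba-x and Hbb-bh1.

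The promoters of the falling erythroid genes were searched for AGATAA, the motif read by GATA factors, on both strands of the 250 bases before the RefSeq start. Of 30 falling genes 24 had a promoter in the RefSeq table, and 4 of them held the motif (16.7%), beside 11.4% of 27025 genes. The Alas2 promoter is shown because Alas2 is a red cell gene whose fall depended on single arrays and whose promoter held the motif. It lies on mouse build GRCm38.p6 at chrX:150547167-150547416, plus strand, just upstream of the first exon, with the motif (as TTATCT, its reverse complement) in capitals:
Alas2: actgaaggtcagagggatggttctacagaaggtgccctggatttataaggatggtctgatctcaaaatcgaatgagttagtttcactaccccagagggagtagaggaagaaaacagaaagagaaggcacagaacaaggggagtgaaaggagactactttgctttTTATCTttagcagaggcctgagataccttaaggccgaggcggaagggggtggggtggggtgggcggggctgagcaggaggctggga
A match describes the sequence and does not show binding.

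Macrophage genes rose. C1qb, a chain of complement C1q made by macrophages, had log2 levels of 8.08, 9.27 and 9.05 in Norrin E10.5, against 4.0, 4.17 and 4.70 in Norrin E8.5. Every E10.5 pool lay far above the E8.5 pools, which were near the floor (difference 4.51, SE 0.34, adjusted p = 3.65e-06, or 22.8-fold in array values). Csf1r, the receptor that macrophages need to survive, had 9.89, 11.01 and 10.67 in Norrin E10.5, against 7.45, 7.96 and 8.07 in Norrin E8.5. The groups did not overlap (2.70, SE 0.32, adjusted p = 6.33e-05), and replicate 1 was the lowest E10.5 pool for both genes. The lysosomal protease Ctss rose 5.51-fold and the chemokine receptor Cx3cr1 4.40-fold. Of 25 macrophage and myeloid genes 13 rose and 0 fell, with a median difference of 0.96 (0.64 after joint quantile normalization). The 13 were 8 without Norrin E10.5 replicate 3 or Norrin E8.5 replicate 2, and 9 without Norrin E10.5 replicate 2. In wild type 9 rose and 0 fell, and C1qb differed by 4.26 there.

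Among 12 measured megakaryocyte and platelet genes 5 rose (3 without Norrin E10.5 replicate 3) and 1 fell. Ppbp, a platelet chemokine, had 7.20, 8.63 and 8.35 in Norrin E10.5, against 4.11, 4.75 and 5.04 in Norrin E8.5. It rose 10.8-fold without overlap (adjusted p = 9.76e-05). Von Willebrand factor (Vwf), shared with endothelium, rose 2.74-fold and the platelet receptor subunit Gp1bb 2.33-fold. Itga2b, the integrin of platelets and early blood progenitors, was the 1 that fell (-0.72, adjusted p = 0.000465). Of 14 progenitor genes 2 rose (14.3%, near the 16.3% of all genes, and 1 to 3 with 1 Norrin array left out), the receptor Kit (1.16) and the homeobox gene Meis1 (1.14), and 0 fell. Runx1 and Gata2, which start blood formation from endothelium, differed by -0.39 and -0.33 with no call. The Runx1 probe sets disagree: 1 of 5 others was at 2.08 (adjusted p over all probe sets = 3.73e-05) and another at -0.42 (0.0493).

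Visceral endoderm genes for secreted plasma proteins rose as a group: 19 of 36 measured rose and 0 fell. Kng1, the kininogen precursor, had log2 levels of 9.68, 10.80 and 10.23 in Norrin E10.5, against 4.91, 4.89 and 6.76 in Norrin E8.5. The E10.5 pools lay well above, a 26.3-fold rise (4.72, SE 0.58, adjusted p = 8.84e-05), and E8.5 replicate 3 was the highest E8.5 pool. Serpina1b, an alpha-1-antitrypsin, showed the same order of pools, with 10.79, 11.69 and 10.79 in Norrin E10.5, against 6.76, 6.74 and 8.54 in Norrin E8.5. Its rise was 13.4-fold (adjusted p = 0.000392), although near-identical Serpina1 copies can share probes. Vitronectin (Vtn) rose 9.52-fold and the hyaluronan-binding Itih2 6.87-fold. Afp, the fetal counterpart of albumin, had 14.49, 14.78 and 14.74 in Norrin E10.5, against 13.13, 12.99 and 14.14 in Norrin E8.5. It rose by 1.25 (adjusted p = 0.00176), at the top of the scale. Other Afp probe sets gave 0.44 to 1.31, with adjusted p over all probe sets of 0.000153 to 0.105. Ttr, the thyroxine carrier, was level at 14.16 to 14.45 in Norrin E10.5 and 14.14 to 14.37 in Norrin E8.5. The median difference of the list was 1.14 (1.10 after joint quantile normalization). The count of 19 was 12 without Norrin E8.5 replicate 1, 20 without Norrin E8.5 replicate 3 and 13 to 16 without each of the others. In wild type 26 of the 36 rose and 0 fell, with a median of 1.66.

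Apolipoprotein and lipoprotein genes moved both ways: 3 rose (18.8%) and 5 fell (31.2%) of 16 measured, beside 16.3% and 9.42% of all genes. With 1 Norrin array left out 1 or 2 rose and 3 to 5 fell. Apoa2, a protein of high-density lipoprotein, had 13.87, 13.86 and 13.87 in Norrin E10.5, against 11.44, 11.48 and 12.64 in Norrin E8.5. It rose 4.04-fold (adjusted p = 0.000483) to nearly equal E10.5 levels. Apoc2, the activator of lipoprotein lipase, had 12.41, 11.99 and 12.21 in Norrin E10.5, against 13.66, 13.38 and 13.15 in Norrin E8.5. It fell 2.28-fold without overlap (adjusted p = 0.000135), and Apom, a carrier of sphingosine phosphate, fell 1.84-fold.

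Genes of cholesterol synthesis and uptake rose in 11 of 19 measured cases, and 1 (Hsd17b7) fell. The adjusted p of Hsd17b7 was 0.0232 to 0.168 with 1 Norrin array left out, past the threshold in 2 of the 6 fits. Insig1, which holds back the sterol-sensing machinery and is itself a target of it, had 8.85, 10.24 and 9.86 in Norrin E10.5, against 7.6, 7.23 and 7.47 in Norrin E8.5. It rose 4.65-fold without overlap (adjusted p = 0.000294). The synthesis enzymes Cyp51, Dhcr7 and Hmgcs1 rose 2.66-, 2.60- and 2.42-fold. The median was 0.84 in Norrin and 1.38 in wild type, where 16 rose and 0 fell. The count of 11 was 7 without replicate 1 or 2 of either stage, 9 without Norrin E10.5 replicate 3 and 10 without Norrin E8.5 replicate 3. The Norrin stage change lay below that of wild type in all 19 genes, and the difference was called for 0 of them (8 at an unadjusted p under 0.05).

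Of 22 endoderm transcription factors 5 rose (22.7%, beside 16.3% of all genes) and 1 fell. Cebpd and Cebpb, factors of the liver's acute-phase response, rose 3.30- and 2.59-fold. The pioneer factors Foxa3 and Foxa1 rose 2.18- and 1.88-fold. Hnf4a, the master regulator of the endoderm's liver-like genes, was not called. Of the endocytosis receptors, megalin (Lrp2) and cubilin (Cubn) were not called either. Fcgrt, the receptor that carries maternal antibodies, rose 2.46-fold (E10.5 levels of 9.57, 10.23 and 9.42, against 8.04, 8.19 and 9.10 at E8.5). Its adjusted p was 0.00888 to 0.085 with 1 Norrin array left out, past the threshold in 3 of the 6 fits. Among 21 lysosomal genes 6 rose (28.6%) and 2 fell (9.52%, near the 9.42% of all genes). Naglu, which degrades heparan sulphate, rose 3.35-fold, and the proteases Ctsh and Lgmn fell 1.93- and 1.90-fold.

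Genes of nutrient carriers and enzymes moved in both directions. Slc22a2, a carrier of organic cations, rose 4.98-fold and Slc16a3, a lactate exporter, 4.34-fold, while the glucose carriers Slc2a2 and Slc5a2 fell 2.07- and 1.88-fold. The adjusted p of Slc2a2 was 0.0139 to 0.111 with 1 Norrin array left out, past the threshold in 3 of the 6 fits. A second Slc5a2 probe set was higher (0.49, adjusted p over all probe sets = 0.0579). In all, 7 of 21 carriers of sugars, monocarboxylates and organic ions rose (4 without Norrin E8.5 replicate 2) and 5 fell (3 to 6 with 1 Norrin array left out). Of 21 amino acid carriers 4 rose (19%), led by Slc7a1 (2.26-fold) and Slc38a2 (2.25-fold), and 3 fell (14.3%), shares near those of all genes. Of 13 genes of gluconeogenesis and glycogen 4 rose (30.8%, beside 16.3% of all genes) and 1 fell. Among the 4 were Pygl, the liver glycogen phosphorylase (5.29-fold), and Gys2, the liver glycogen synthase (4.65-fold). Of 23 genes of amino acid breakdown 5 rose (3 without Norrin E8.5 replicate 2) and 3 fell (1 without replicate 1 of either stage), and the tyrosine breakdown enzymes Hpd, Hgd and Fah rose 2.73-, 2.62- and 3.06-fold. Of 22 detoxification genes 7 rose (4 without replicate 1 or 2 of either stage) and 0 fell, led by Mgst1 (5.15-fold), for which a second probe set was level (-0.10). Of 18 genes of fatty acid oxidation 1 rose (5.56%, beside 16.3% of all genes), the entry enzyme Cpt1a (2.77-fold).

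Genes of the mesodermal layer rose too. Of 19 genes of mesenchyme and fibrillar matrix, 15 rose (78.9%) and 0 fell, with a median difference of 0.84 (0.86 after joint quantile normalization). Col6a1, a microfibrillar collagen chain, had log2 levels of 9.18, 10.13 and 9.33 in Norrin E10.5, against 6.78, 6.94 and 6.95 in Norrin E8.5. It rose 6.32-fold without overlap (adjusted p = 8.17e-06). Col1a1, the main chain of collagen I, had 14.02, 13.98 and 13.87 in Norrin E10.5, against 11.29, 11.30 and 12.92 in Norrin E8.5. It rose 4.36-fold (adjusted p = 0.00508), with E8.5 replicate 3 close to the E10.5 pools. Decorin (Dcn) rose 4.93-fold, and Tgfbi, a matrix protein induced by TGF-beta, 8.77-fold. The count of 15 was 13 or 14 with any Norrin array left out.

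Of 8 mesothelium genes 5 rose and 0 fell, in every fit that left out a Norrin array too. Upk3b, a surface protein of mesothelium, had 10.85, 10.52 and 10.62 in Norrin E10.5, against 7.59, 7.35 and 8.93 in Norrin E8.5. It rose 6.53-fold without overlap (adjusted p = 0.000714). Wt1, the mesothelial transcription factor, rose 2.39-fold. Contractile genes of smooth muscle rose in 8 of 18 cases and 1 fell. Actg2, the gamma actin of visceral muscle, had 9.16, 9.97 and 9.18 in Norrin E10.5, against 7.13, 7.18 and 6.81 in Norrin E8.5 (5.26-fold, adjusted p = 9.73e-06). Myl9 and Tagln, which act with it in contraction, rose 4.98- and 4.66-fold. Their pools did not overlap between the stages.

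Endothelial genes did not move together. Flt1, a receptor that binds VEGF and can act as its decoy, had log2 levels of 10.10, 10.44 and 10.25 in Norrin E10.5, against 8.36, 8.41 and 8.67 in Norrin E8.5. It rose 3.43-fold without overlap (1.78, SE 0.13, adjusted p = 2.84e-06). Kdr, the main signalling receptor for VEGF, had 9.36, 8.78 and 9.23 in Norrin E10.5, against 10.31, 10.10 and 10.44 in Norrin E8.5. It fell 2.23-fold without overlap (-1.16, SE 0.24, adjusted p = 0.00271), and Nos3, the endothelial nitric oxide synthase, fell 1.58-fold. The adjusted p of Nos3 was 0.0263 to 0.129 with 1 Norrin array left out, past the threshold in 2 of the 6 fits. Of 26 pan-endothelial genes Flt1 was the 1 that rose (3.85%), and Kdr and Nos3 were the 2 that fell (7.69%), with a median of -0.30. In the fits without 1 Norrin array, 1 to 3 fell. The defining markers Pecam1, Cdh5 and Tek had differences of 0.23, -0.57 and -0.77 and adjusted p of 0.501, 0.0854 and 0.131.

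Arterial and Notch genes rose in 7 of 19 cases, and 1 fell. The Notch ligand Jag1 had 7.47, 8.04 and 7.92 in Norrin E10.5, against 5.53, 6.02 and 5.57 in Norrin E8.5 (4.30-fold, adjusted p = 3.78e-05). The chemokine receptor Cxcr4 rose 4.01-fold and Epas1, a hypoxia-inducible factor subunit, 2.96-fold. Of 9 venous and lymphatic genes 2 rose (22.2%) and 1 fell (11.1%), the lymphatic VEGF receptor Flt4 (-0.98, adjusted p = 0.000137). A second Flt4 probe set was level (0.03, adjusted p over all probe sets = 0.9). Among 15 angiogenic signals 3 rose (20.0%, beside 16.3% of all genes) and 0 fell. Those that rose were the matrix proteins Ccn1 (3.97-fold) and Ccn2 (2.90-fold) and the lipase inhibitor Angptl4 (1.58-fold). Vegfa itself had 9.33, 9.81 and 9.56 in Norrin E10.5, against 9.28, 9.27 and 8.57 in Norrin E8.5, with no call.

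Of the Norrin gene Ndp and its receptor genes Fzd4, Lrp5, Lrp6 and Tspan12, 1 of 5 was called. Fzd4 had log2 levels of 9.95, 9.76 and 10.10 in Norrin E10.5, against 9.70, 9.56 and 8.97 in Norrin E8.5. Every E10.5 pool was higher, but the difference of 0.53 (SE 0.24) had an adjusted p of 0.0965. Of the other Fzd4 probe sets, 1 was higher by 1.41 (adjusted p over all probe sets = 0.00243) and 1 by 0.20 (0.169), so the probe sets disagree. Lrp6 rose by 0.50 (SE 0.19, adjusted p = 0.0495). Its adjusted p was 0.0255 to 0.165 with 1 Norrin array left out, past the threshold in 1 of the 6 fits, and a second probe set gave -0.43. Lrp5 and Tspan12 differed by -0.25 and 0.20, with no call. Of 16 beta-catenin targets 2 rose (12.5%) and 3 fell (18.8%), beside 16.3% and 9.42% of all genes. The ubiquitin ligase Znrf3, which removes Frizzled receptors, rose 2.93-fold and Lef1, a partner of beta-catenin on DNA, 2.31-fold. A second probe set gave smaller log2 differences of 0.47 for Znrf3 and 0.34 for Lef1 (adjusted p over all probe sets = 0.00899 and 0.0981). Axin2, the feedback inhibitor most used as a readout of the pathway, fell: it had 8.08, 7.67 and 7.80 in Norrin E10.5, against 8.90, 8.83 and 8.29 in Norrin E8.5 (-0.82, SE 0.18, adjusted p = 0.00425). Its pools did not overlap. Secreted antagonists rose in 5 of 13 cases (2 without Norrin E10.5 replicate 3 or Norrin E8.5 replicate 1) and 1 fell. Among those named by rule the largest rise was that of Sfrp2, a Wnt-binding protein. It had 8.30, 7.13 and 7.91 in Norrin E10.5, against 4.89, 5.03 and 5.10 in Norrin E8.5 (6.84-fold, adjusted p = 2.81e-05). For Sfrp1, probe sets other than the brightest were higher by 0.55, 2.60, 2.90 and 2.90. Dkk2, which blocks Lrp5 and Lrp6, rose 3.44-fold. Of 16 BMP and TGF-beta genes 4 rose (25.0%) and 4 fell (25.0%), beside 16.3% and 9.42% of all genes. The falling ones included Msx1 (-1.48) and Bmp7 (-1.04). With 1 Norrin array left out 3 or 4 rose and 2 to 4 fell.

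**Figure D2:**
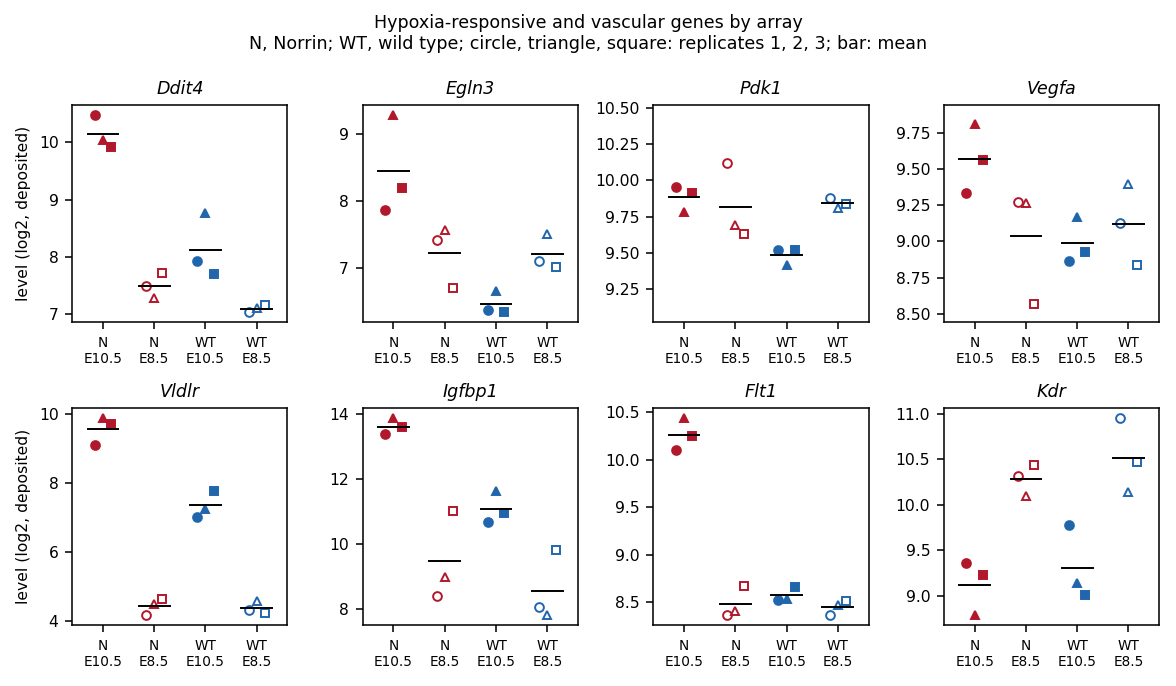
Log2 levels (y axis, deposited values) of Ddit4, Egln3, Pdk1, Vegfa, Vldlr, Igfbp1, Flt1 and Kdr on each array, by group from Norrin E10.5 to wild type E8.5. Symbols are replicates 1, 2 and 3 and bars are group means; for Ddit4, Vldlr, Igfbp1 and Flt1 the 3 Norrin E10.5 pools lie above the other 9 arrays.

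Genes induced by low oxygen rose in 13 of 19 cases and 0 fell, beside 16.3% and 9.42% of all genes. Cells sense oxygen through prolyl hydroxylases, which mark hypoxia-inducible factors for destruction as long as oxygen is at hand. Ddit4, an inhibitor of the growth kinase mTOR, had log2 levels of 10.47, 10.04 and 9.92 in Norrin E10.5, against 7.50, 7.28 and 7.72 in Norrin E8.5. It rose 6.25-fold without overlap (2.64, SE 0.24, adjusted p = 1.32e-05). Mxi1, an antagonist of Myc, had 9.82, 9.79 and 9.83 in Norrin E10.5, against 7.99, 8.01 and 7.85 in Norrin E8.5. Its pools were nearly equal within each stage (3.63-fold, adjusted p = 2.11e-05). Ndrg1, a stress-response protein, rose 4.18-fold, with E10.5 replicate 2 highest (11.39, against 9.80 and 9.82 in the other E10.5 pools). Members that modify collagen (Plod2 and P4ha2) rose 3.31- and 3.29-fold. Vegfa, Pdk1, Hk2, Car9, Adm and Higd1a were not called by their brightest probe sets. Another probe set was higher on the deposited values for Pdk1 (1.25, adjusted p over all probe sets = 0.00189), Adm (1.31, 0.0289), Higd1a (0.53, 0.0136) and Vegfa (0.36, 0.0393). The median of the list was 1.09 (0.98 after joint quantile normalization) in Norrin and 0.32 (0.20) in wild type, where 7 rose and 1 fell. With 1 Norrin array left out 11 to 14 rose. The Norrin stage change exceeded that of wild type in 18 of the 19 genes, and the difference was called for 0 of them. At an unadjusted p under 0.05 it was 12, beside 7.01% of all genes. Of 13 glycolysis genes 3 rose (23.1%, beside 16.3% of all genes), led by Aldoa (2.70-fold), and 0 fell, but 1 rose without Norrin E10.5 replicate 2.

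The promoters of these 13 genes were searched for ACGTG, the core of the element bound by hypoxia-inducible factors, on both strands of the 250 bases before the RefSeq start. Of 11 with a promoter in the table, 9 held it (81.8%), beside 18.5% of 27025 genes. The letters contain a CG step, and the base composition of these promoters was not matched. The genes also come from a list chosen as induced by low oxygen, and its uncalled members were not searched. The share therefore describes members of that list and cannot be tied to their rise in these data. The promoters of Ddit4, Mxi1 and Egln3 (a prolyl hydroxylase that is itself induced by low oxygen) are shown with the core in capitals, since these genes rose together. They lie on GRCm38.p6 at chr10:59951771-59952020 (minus strand), chr19:53329163-53329412 (plus strand, 1 of 3 promoters listed for the gene) and chr12:54203875-54204124 (minus strand), each just upstream of a first exon and written along the gene.
Ddit4: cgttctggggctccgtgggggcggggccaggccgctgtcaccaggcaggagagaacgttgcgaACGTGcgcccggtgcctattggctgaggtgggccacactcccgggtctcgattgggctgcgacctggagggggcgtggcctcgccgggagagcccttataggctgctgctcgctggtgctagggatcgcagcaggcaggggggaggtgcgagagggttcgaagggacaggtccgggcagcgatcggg
Mxi1: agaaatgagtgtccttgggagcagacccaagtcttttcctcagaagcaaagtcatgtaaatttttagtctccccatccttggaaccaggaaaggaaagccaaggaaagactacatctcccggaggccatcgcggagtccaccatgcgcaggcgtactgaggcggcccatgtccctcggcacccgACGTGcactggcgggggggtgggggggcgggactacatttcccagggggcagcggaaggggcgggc
Egln3: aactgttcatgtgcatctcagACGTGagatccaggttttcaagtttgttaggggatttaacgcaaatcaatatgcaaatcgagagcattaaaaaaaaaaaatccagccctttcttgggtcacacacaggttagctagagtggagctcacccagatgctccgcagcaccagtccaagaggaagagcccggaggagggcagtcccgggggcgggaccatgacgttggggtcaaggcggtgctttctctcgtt
The core starts 187 bases before the start of Ddit4, 66 before that of Mxi1 and 229 before that of Egln3. Other motifs were searched in the same way. The sterol element CACCCCAC was in 1 of 8 promoters of rising cholesterol genes (12.5%, beside 2.98% of all genes). The CArG box of smooth muscle genes was in 1 of 5 (20.0%, beside 1.62%). Uncalled members of those lists were not searched either.

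Immediate early and stress genes rose in 9 of 19 cases and 0 fell. Jun had log2 levels of 10.18, 10.58 and 10.05 in Norrin E10.5, against 7.65, 8.14 and 7.13 in Norrin E8.5 (6.21-fold, adjusted p = 3.19e-05). Its partner Fos had 8.97, 10.80 and 9.35 in Norrin E10.5, against 6.65, 7.26 and 6.59 in Norrin E8.5 (7.33-fold, adjusted p = 9.74e-05). For both, no pools overlapped and replicate 2 was the highest at each stage. The heat shock gene Hspa1a had 6.43, 11.06 and 7.61 in Norrin E10.5, against 5.66, 5.79 and 4.90 in Norrin E8.5. Its difference of 2.92 (adjusted p = 0.016) was 1.57 (adjusted p = 0.00879) without Norrin E10.5 replicate 2. The mean level of the list was 8.69, 9.64 and 8.91 in Norrin E10.5, against 7.85, 8.01 and 7.58 in Norrin E8.5. Without Norrin E10.5 replicate 2, 9 members still rose.

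Interferon response genes rose in 8 of 9 measured cases. Ifit1, an antiviral protein that binds foreign RNA, had 6.88, 8.38 and 8.05 in Norrin E10.5, against 4.49, 4.78 and 4.58 in Norrin E8.5. It rose 8.89-fold without overlap (3.15, SE 0.30, adjusted p = 1.92e-05). Oasl2 rose 9.0-fold and the chemokine Cxcl10 6.76-fold. Without Norrin E10.5 replicate 2, 8 of the 9 rose as well. Of 12 antigen presentation genes 5 rose and 0 fell, in every fit that left out a Norrin array too. B2m, the shared chain of class I molecules, had 12.02, 12.85 and 12 in Norrin E10.5, against 10.10, 10.63 and 10.90 in Norrin E8.5 (3.36-fold, adjusted p = 0.00203). Its pools did not overlap.

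Other tissues that a dissected yolk sac can carry were read by their own markers. Of 13 measured trophoblast genes 2 rose (Tpbpb and Psg21, 15.4%, beside 16.3% of all genes) and 0 fell. The mean level of the list was 5.92, 8.24 and 5.99 in Norrin E10.5, against 5.38, 6.58 and 5.77 in Norrin E8.5, and 5.87 to 6.18 and 5.72 to 6.16 in wild type E10.5 and E8.5. Replicate 2 was thus the highest at both stages. Tpbpa, which marks the spongiotrophoblast, had 5.63, 11.90 and 6.55 in Norrin E10.5. Ctsj, a placental cathepsin, had 3.76, 11.39 and 3.93 there, near the floor in 2 of the 3 pools. Without Norrin E10.5 replicate 2, 1 of the 13 rose. Among 15 parietal endoderm genes, which make the thick membrane outside the yolk sac, 7 rose and 0 fell. Plat, a plasminogen activator, had 10.04, 10.22 and 10.52 in Norrin E10.5, against 7.37, 7.64 and 8.46 in Norrin E8.5 (5.42-fold, adjusted p = 4.71e-05). The mean level of that list was 10.62 to 10.70 in Norrin E10.5, against 9.79 to 10.11 in Norrin E8.5. The embryo neural, embryo muscle and heart, and decidua lists had 3, 1 and 3 members that rose and 0, 1 and 0 that fell, of 15, 12 and 7. The shares that rose were 20.0%, 8.33% and 42.9%, beside 16.3% of all genes. Mean levels of these lists were 6.11 to 6.14, 6.01 to 6.22 and 7.10 to 7.62 in Norrin E10.5, against 5.64 to 5.74, 5.68 to 5.94 and 6.31 to 6.92 in Norrin E8.5. The Y-linked Eif2s3y had 7.16, 4.0 and 8.14 in Norrin E10.5 and 3.26, 6.18 and 5.30 in Norrin E8.5. Its levels thus differed widely between pools of 1 stage, and the sex mix of each pool was not tested. The part of other tissues or of sex in the changes was not tested.

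**Figure D3:**
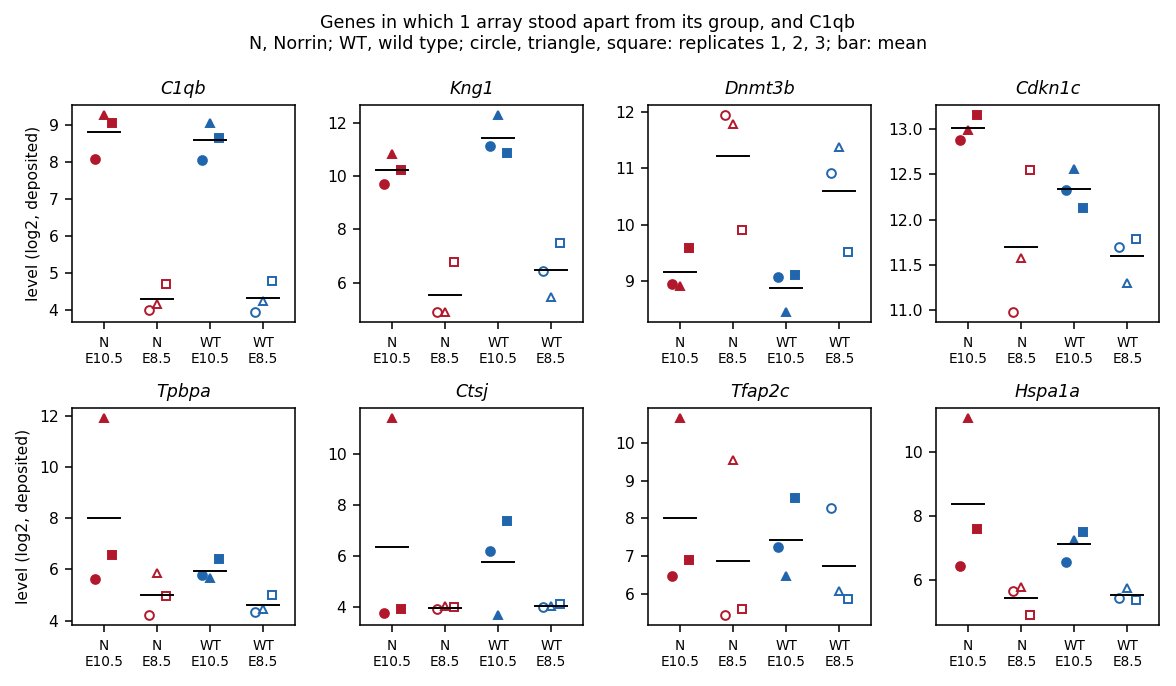
Log2 levels (y axis, deposited values) of 8 genes on each array, by group from Norrin E10.5 to wild type E8.5; symbols are replicates 1, 2 and 3 and bars are group means. Norrin E8.5 replicate 3 (open square) lies toward the E10.5 levels for Kng1, Dnmt3b and Cdkn1c, and Norrin E10.5 replicate 2 (filled triangle) stands above its group for Tpbpa, Ctsj, Tfap2c and Hspa1a.

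Cell cycle genes fell in 11 of 32 cases and 0 rose, with a median difference of -0.39. Ccne1, the cyclin that starts DNA replication, had log2 levels of 9.72, 9.80 and 9.48 in Norrin E10.5, against 10.74, 11.16 and 10.61 in Norrin E8.5 (-1.17, SE 0.18, adjusted p = 0.000431). No pools overlapped. The mitotic kinase Aurka fell by 0.90. Without 1 Norrin array 8 to 15 fell, the highest without Norrin E10.5 replicate 1. Cell cycle inhibitors rose in 7 of 14 cases and 0 fell. Ccng2, a cyclin that halts the cycle, had 9.83, 11.12 and 10.55 in Norrin E10.5, against 7.87, 7.84 and 8.37 in Norrin E8.5 (5.56-fold, adjusted p = 0.000288). Cdkn1c, an imprinted inhibitor of cyclin-dependent kinases, had 12.88, 12.99 and 13.16 in Norrin E10.5, against 10.97, 11.57 and 12.55 in Norrin E8.5. It rose 2.48-fold (adjusted p = 0.00537), with E8.5 replicate 3 nearest to the E10.5 pools. Of 16 imprinted growth genes 8 rose and 0 fell, among them Nnat (2.85-fold) and Plagl1 (2.19-fold).

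Dnmt3b, which adds new DNA methylation in the early embryo, had 8.96, 8.92 and 9.59 in Norrin E10.5, against 11.94, 11.80 and 9.91 in Norrin E8.5. It fell by 2.06 (SE 0.53, adjusted p = 0.00968), and by 2.71 without Norrin E8.5 replicate 3. Tet2, which starts the removal of methyl groups, rose 3.40-fold, and the other 6 of the 8 enzymes were not called. One of them, the de novo methyltransferase Dnmt3a, differed by 0.43 (adjusted p = 0.145) by its brightest probe set, while 3 of its other 4 were higher at E10.5 (1.37, 1.35 and 0.77, the highest adjusted p over all probe sets being 0.00707). Lin28a, an RNA-binding protein of early embryos that blocks let-7 maturation, fell 2.33-fold, while 2 of 14 early embryo genes rose (14.3%, near the 16.3% of all genes). Among 23 Hox genes 3 rose (13%) and 2 fell (8.70%), shares near those of all genes (16.3% and 9.42%). Hoxb6 had 6.61, 5.45 and 6.13 in Norrin E10.5, against 8.12, 8.35 and 7.72 in Norrin E8.5. Hoxa10 moved the other way by its brightest probe set, with 6.46, 6.2 and 6.98 in Norrin E10.5, against 4.51, 4.74 and 4.48 in Norrin E8.5. A second Hoxa10 probe set was level (-0.06, adjusted p over all probe sets = 0.77). Of 12 IGF system genes 4 rose (2 without Norrin E10.5 replicate 3) and 0 fell. Of 17 retinoid genes 3 rose (17.6%), led by the retinol carrier Rbp2 (2.93-fold), and 2 fell (11.8%), shares near those of all genes. Of 14 ABC transporters 5 rose, among them the cholesterol exporter Abca1 (2.63-fold), and 0 fell; 3 rose without replicate 2 or 3 of either stage.

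**Figure D4:**
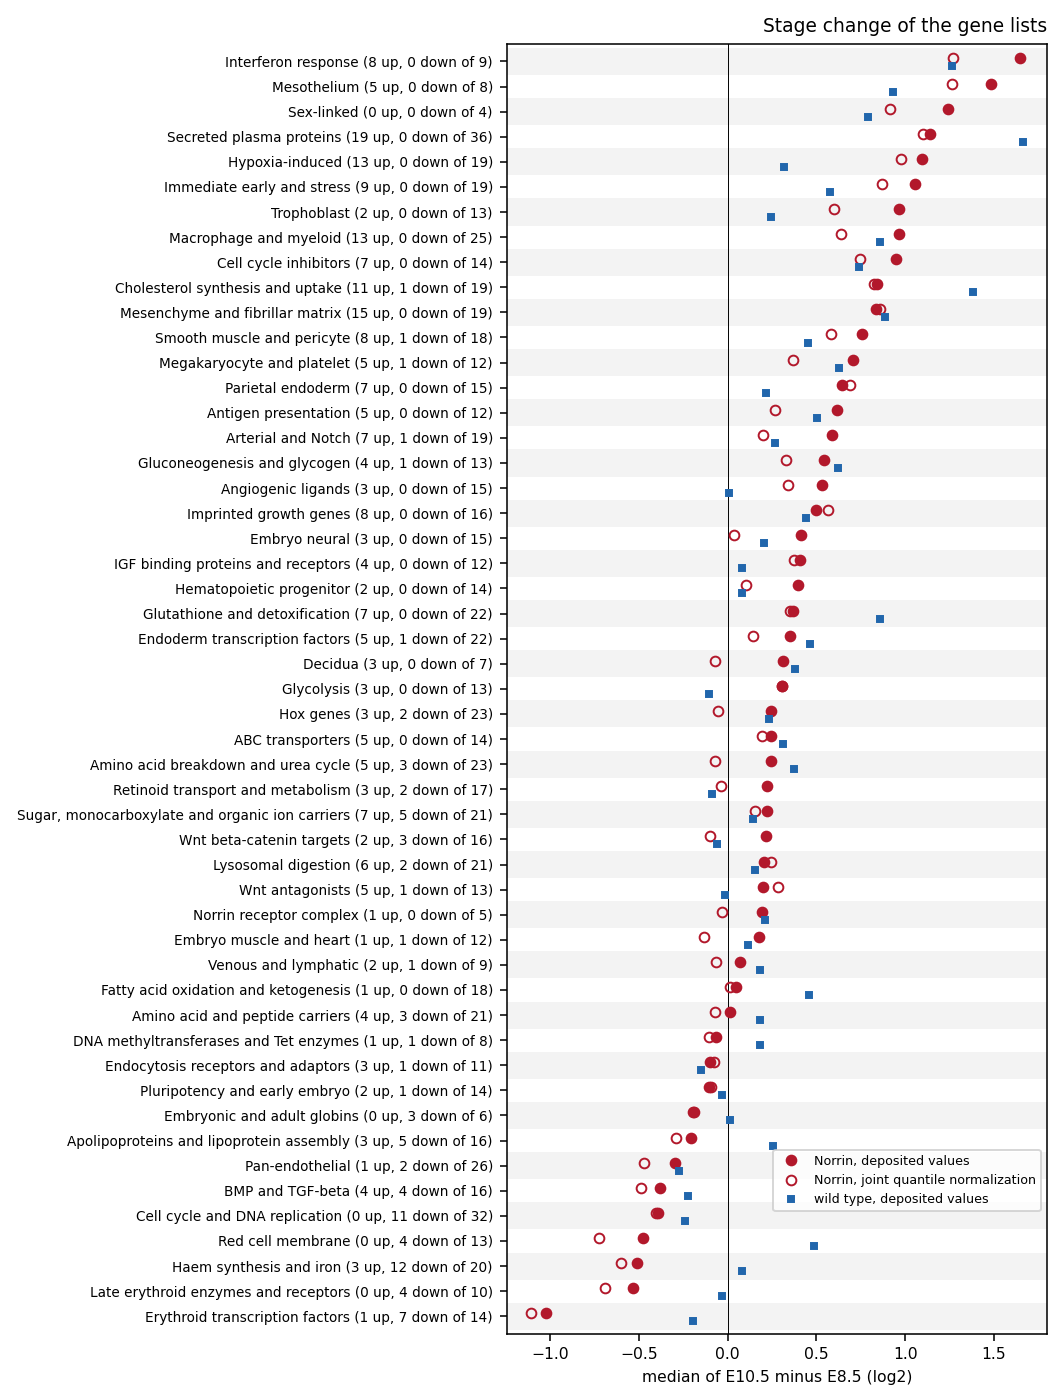
Median over the measured members of each list (y axis, with the numbers that rose and fell in Norrin) of the log2 difference E10.5 minus E8.5 (x axis): filled circles, Norrin on deposited values; open circles, Norrin after joint quantile normalization; squares, wild type on deposited values. Erythroid transcription factors lie lowest in Norrin (-1.02), and the hypoxia-induced list stands at 1.09 in Norrin and 0.32 in wild type.

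The stage change of wild type yolk sac, measured on 6 other arrays, set the Norrin change in context. Of the 2971 genes that rose in Norrin, 2021 (68.0%) rose in wild type too, which is 70.5% of the 2867 (15.8%) that rose there. Of the 1713 that fell, 819 (47.8%) fell in wild type, or 64.1% of its 1278 (7.02%). By the deposited values alone, 25.4% of all genes were higher and 7.12% lower at E10.5 in wild type. Across genes the Norrin and wild type differences correlated at r = 0.83 on the deposited values (0.82 after joint quantile normalization). Genes are not independent replicates, and both differences carry the same contrast of normalization runs. A gene called in Norrin and not in wild type is not thereby shown to differ, so the difference of the stage changes (Norrin minus wild type) was tested itself, in which a run effect shared by both genotypes cancels.

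That difference was called for 17 genes, 7 with a higher (0.0385%) and 10 with a lower (0.055%) stage change in Norrin. After joint quantile normalization 29 were called, 11 higher (0.0605%) and 18 lower (0.0989%), and 16 genes passed on both scalings. At an unadjusted p under 0.05 there were 1275 (7.01%). The number rested on single arrays: with 1 of the 12 left out, it was 5 to 36. Flt1 had 10.10, 10.44 and 10.25 in Norrin E10.5 and 8.36, 8.41 and 8.67 in Norrin E8.5, while wild type had 8.52, 8.54 and 8.66 at E10.5 and 8.36, 8.47 and 8.52 at E8.5. The Norrin E10.5 pools stood above all other arrays (difference of stage changes 1.65, SE 0.18, adjusted p = 0.00301). Vldlr rose in both genotypes, by 5.14 in Norrin and 3.00 in wild type (difference 2.15, SE 0.33, adjusted p = 0.0372). The kinesin gene Kif5c rose by 2.76 in Norrin and differed by 0.63 in wild type (difference 2.13, adjusted p = 0.0223), and its other 3 probe sets gave 0.27, 0.71 and -0.19 in Norrin. The metalloprotease gene Adamts1 and the small GTPase gene Rhob rose by 1.25 and 1.46 in Norrin, against -0.36 and 0.22 in wild type.

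The stage change was lower in Norrin for 10 genes. Saa4, a serum amyloid carried on lipoproteins, had 5.96, 6.22 and 6.13 in Norrin E10.5 and 6.10, 6.51 and 6.2 in Norrin E8.5. In wild type it had 9.01, 9.15 and 8.78 at E10.5 and 6.30, 6.37 and 6.62 at E8.5. Only the wild type E10.5 pools stood apart (difference -2.72, SE 0.21, adjusted p = 0.000339). Slc16a7, a pyruvate and lactate carrier, had 6.45, 6.68 and 6.31 in Norrin E10.5, against 3.72, 3.97 and 3.99 in Norrin E8.5. Its E8.5 levels were near the floor, and it rose in Norrin by less than in wild type, whose E8.5 levels were as low (2.59 against 5.06, adjusted p of the difference = 0.00145). Rasgrp2, an activator of Rap1 in platelets, had 7.38, 7.27 and 7.39 in Norrin E10.5, against 9.17, 8.94 and 8.64 in Norrin E8.5. It fell 2.96-fold in Norrin, while the wild type difference was 0.40 (adjusted p of the difference = 0.00301). A second Rasgrp2 probe set gave -0.93 in Norrin, and the other 2 gave -0.03 and 0.15. The gluconeogenic enzyme Fbp2, the drug exporter Abcb1a, the purine enzyme Pnp, the quinone reductase Nqo2, the cytoskeletal protein Misp and the fatty acid importer Cpt2 had differences of -2.59, -1.99, -1.54, -1.20, -1.19 and -1.05. Cpt2 was not called after joint quantile normalization (adjusted p of the difference = 0.0664). Other Nqo2 probe sets gave -0.73 and 0.39 in Norrin, against -0.04 for the brightest. The other 3 called genes, Mnd1 (-1.60), Gulo (1.29) and Aox4 (1.89), lay below the level set for named genes and were chosen after their values were seen.

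**Figure D5:**
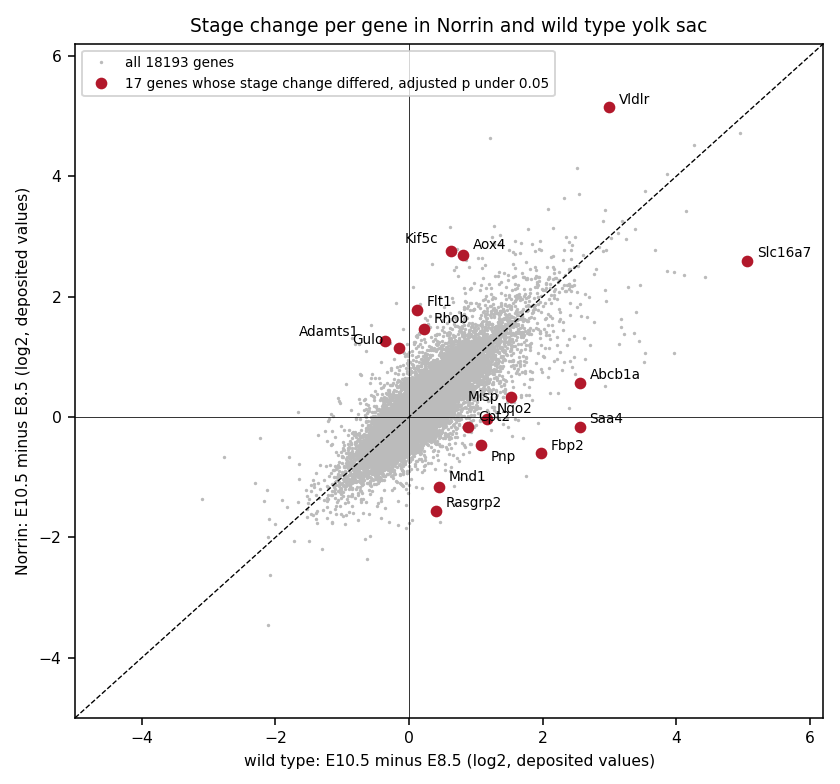
Log2 difference E10.5 minus E8.5 of each gene in Norrin (y axis) against wild type (x axis) on deposited values; grey points are 18193 genes, red points the 17 whose stage change differed at an adjusted p under 0.05, and the dashed line marks equal change. Flt1, Kif5c and Vldlr lie above the line, and Saa4, Fbp2 and Slc16a7 below it.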

How the data were processed

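RNA of 12 whole yolk sac pools was hybridised to 1-colour expression arrays. The values the authors deposited are on a log2 scale. RMA is the tool that the submitters' processing notes name, without a version. Of 45101 probe sets, 64 controls, 932 with several genes and 9160 with none were left out. Each of 18193 genes was read from its probe set with the highest mean over the 12 arrays, and 9010 genes had several. Other probe sets are given for some genes only, so where none is given they need not have moved alike. Second probe sets of Angptl4, Aurka and Dcn, for example, gave -0.07, 0.23 and 0.19 in Norrin. No column belonged to another sample. A 4-group model was fitted with limma 3.58.1 in R 4.3.3 to all 12 arrays (8 residual degrees of freedom), with Benjamini-Hochberg adjustment at 0.05. Contrasts were Norrin E10.5 minus Norrin E8.5, the same in wild type, and their difference. A gene was called changed if it passed with the same sign on the deposited values and after joint quantile normalization. The number of arrays limits the precision: the median SE of a stage difference was 0.159 on the log2 scale. On simulated data for the Norrin contrast over 18193 genes, 83% of 100 genes changed by a log2 of 1 and 99% of 100 changed by a log2 of 2 were recovered. There were 10 false calls. The simulated noise was independent between genes and a single fit was read, so these rates do not describe the rule that needs both scalings.

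Gene lists and members were chosen with earlier results of these data known. Named genes were up to 15 per direction with the largest Norrin stage difference among called, non-overlapping genes with a mean at or above the median gene level in the higher group. Added to these were up to 4 per direction from each list under the same conditions, and up to 10 per direction of the difference from wild type. Ndp and the Norrin receptor genes were named whatever their values. Ctss, Cx3cr1, Vwf, Afp, Gata1, Hba-a1, Gys2, Hpd, Hgd, Wt1, Cxcr4, Lef1, Sfrp1, Plod2, P4ha2, Egln3, Oasl2, Cxcl10, Tpbpb, Psg21, Tpbpa, Ctsj and Hoxa10, the members named as not called, and Eif2s3y were named outside this rule after their values were seen. Promoters are from RefSeq on GRCm38.p6. Alternatives covered scaling, probe set choice, a level filter, array weights, a replicate block and leaving out each array. Same-numbered pools of the 2 stages deviated with r of -0.304, 0.204 and -0.248 in Norrin, so the numbers were not taken as pairs.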

Additional observations from a re-analysis of the deposited data

Results flagged for a closer look

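On the deposited values, the stage change differed between Norrin and wild type yolk sac for 14 genes named by rule, by the test of that difference (limma, Benjamini-Hochberg over 18193 genes). All but Cpt2 (adjusted p = 0.0664) were called after joint quantile normalization too. Values are Norrin minus wild type on the log2 scale. The stage change was higher in Norrin for Vldlr (2.15), Kif5c (2.13), Flt1 (1.65), Adamts1 (1.62) and Rhob (1.24). It was lower in Norrin for Saa4 (-2.72), Fbp2 (-2.59), Slc16a7 (-2.48), Abcb1a (-1.99), Rasgrp2 (-1.97), Pnp (-1.54), Nqo2 (-1.20), Misp (-1.19) and Cpt2 (-1.05). Saa4 and Slc16a7 were called in all 20 settings in which they were measured, Rasgrp2 in 20 of 21 and Flt1 in 19 of 21. Cpt2 was called in 4 of 21, Nqo2 and Rhob in 6 of 21, Adamts1 in 7 of 21 and Abcb1a in 8 of 20. Pnp and Misp were called in 10 of 21, Fbp2 in 12 of 21, and Kif5c and Vldlr in 12 of 20. No setting turned the sign of any of them. Kif5c had a lowest difference of 0.73 over the settings, and Vldlr one of 1.33.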

How the results depend on the processing

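The number of genes called in Norrin E10.5 against Norrin E8.5 was 6895 on the deposited values. It was 11639 with array weights, 2641 when only genes at or above the median level were tested, 12998 with every named probe set tested, and 12163 with every named probe set after joint quantile normalization, the last chosen after seeing the data. With 1 array left out it was 5242 to 7629. The wild type count of 5915 was 10797 with array weights, 1918 for genes at or above the median level and 11401 with every probe set, and 4311 to 6285 with 1 array left out. The level filter and the probe set choice change how many features are tested; the cause of the array weight counts was not tested. The number of genes whose stage change differed between Norrin and wild type (17) was 29 after joint quantile normalization, 2728 with array weights, 3 for genes at or above the median level, 37 with the mean of a gene's probe sets and 26 with every probe set, and 5 to 36 with 1 array left out. It was 31 without Norrin E10.5 replicate 2 and 36 without wild type E8.5 replicate 3. With the replicate number as a block it was 2; same-numbered pools shared a number, not a known origin, and not every pool correlated best with its own number. Of 196 named stage genes, 155 kept their direction and call under every setting run and 41 lost the call under at least 1, at most 23 under a single setting (without Norrin E8.5 replicate 2). No named gene past the threshold changed sign under the settings run, but the balance did: 5133 higher and 1762 lower on the deposited values, against 3060 higher and 3587 lower after joint quantile normalization. Of 51 list medians, 9 had the opposite sign after joint quantile normalization, 8 after cyclic loess, 16 with arrays centred on their median, and at most 3 with 1 array left out; the Wnt target median was 0.22 on the deposited values and -0.10 after joint quantile normalization. Signal over background was not analysed, so levels near the floor limit how far rises and falls can be sized.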
